A study of Homo sapiens with 8 samples.

Results

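Fibroblast growth factor 2 (FGF2), its secreted carrier FGFBP1 and the 4 FGF receptors FGFR1, FGFR2, FGFR3 and FGFR4 were described across 4 groups of SAS cells, an established line from a human squamous cell carcinoma of the tongue. The 6 genes, among 43317 gene names on the array, were chosen by name, and earlier results of the same arrays were known when they were chosen, above all the high FGF2 signal with miR-629-3p. They were read by 12 of 58201 gene probes. The SAS cells were transfected with 25 nM of a negative control RNA (NC) or of 1 of 3 microRNAs, which were miR-874-3p, miR-210-3p and miR-629-3p, and RNA was taken after 48 h according to the sample labels. The study calls the cells SAS/GFP, that is SAS cells carrying a GFP vector, and gives a shorter time to extraction, so the exact time is not settled. Each group held 2 arrays, and nothing says that these came from separate cultures, so that p-values measure only the spread between these arrays, which may be technical. A single cell line was used, and transfection commonly raises a microRNA far above its natural level.

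FGF2 is a heparin-binding growth factor that leaves cells without a signal peptide and is held on heparan sulfate outside them. FGFBP1 binds FGF2 and releases it from that store, and the receptors are membrane tyrosine kinases that need ligand together with heparan sulfate to signal through adaptors such as FRS2 and GAB1 to the MAP kinase ERK. Active signalling induces its own inhibitors, the Sprouty proteins and the dual-specificity phosphatases, and transcription factors such as EGR1, ETV4 and ETV5. Squamous epithelium is known to express the receptors FGFR2 and FGFR3 and to use the epithelial splice form of FGFR2. A microRNA tends to lower mRNAs that carry matches to its seed, bases 2 to 8 of the mature strand.

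The mature sequences of the 3 transfected microRNAs are shown because their seeds define the treatments. They are from RefSeq (GRCh38.p14), written 5′ to 3′ with the seed in capitals. The 3 seeds differ from each other.
miR-629-3p: gUUCUCCCaacguaagcccagc
miR-210-3p: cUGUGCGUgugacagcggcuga
miR-874-3p: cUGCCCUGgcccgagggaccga

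The 7-base matches to these seeds (GGGAGAA for miR-629-3p, ACGCACA for miR-210-3p and CAGGGCA for miR-874-3p, on the transcript strand only) were found in 0 of the 12 member probes. Among all 60-base probes, 0.747%, 0.131% and 0.387% held them. A probe covers only a short stretch of a transcript, so this says nothing of the rest of the mRNA.

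A pair of probe sequences is shown because each reads a stretch of a receptor's kinase-coding part. FGFR4 had this probe only, so each FGFR4 value rests on it. For FGFR2 it is the second of 2 probes that were both lowest with miR-210-3p but differed for miR-874-3p. They are written 5′ to 3′ in the direction of the transcript. In the FGFR4 probe (hg19, chr5:176523121-176523180, plus strand), capitals mark bases 4 to 12, the codons of the aspartate, phenylalanine and glycine that open the activation loop of kinases, found by translating the probe. In the FGFR2 probe (hg19, chr10:123243217-123243276, minus strand) nothing is marked.
FGFR4 probe A_23_P92754: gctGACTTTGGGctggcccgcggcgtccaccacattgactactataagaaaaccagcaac
FGFR2 probe A_24_P206624: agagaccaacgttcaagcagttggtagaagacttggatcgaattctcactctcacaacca

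Throughout, a level is the log2 of a probe's scanner signal relative to the 75th percentile of its array, so 0 is a fairly bright probe and a step of 1 is a doubling. Levels of different probes are not comparable, because probes bind with different strength. A gene was tested if its brightest probe rose well above background on each array of 1 group or more, which held for 21283 genes and all 6 members. It was called at an adjusted p under 0.05 (limma, Benjamini-Hochberg over all genes tested). All 8 arrays lay on 1 slide, with miR-629-3p and miR-210-3p in row 1 and miR-874-3p and NC in row 2. The share of probes well above background was 46.5% to 49.8% in row 1 and 41.8% to 46.3% in row 2. A difference between the rows therefore cannot be told apart from a difference between those groups, and only miR-629-3p against miR-210-3p and miR-874-3p against NC lie within a row. All 9 squamous epithelial markers looked for were well above background on all 8 arrays. Of 7 fibroblast markers, 5 were well above background on none and 1 on all, and 2 of 4 blood and 2 of 4 endothelial markers were on all. The summed relative signal of the squamous markers was 1140 on both miR-629-3p arrays and 1440 to 1570 on the other 6, a sum over different probes that the brightest, KRT18, leads. Of the 9, limma called 5 lower than NC for miR-629-3p, 55.6% beside 7.47% of all genes lower. It called 3 lower for miR-210-3p, 33.3% beside 2.20% of all genes lower. For miR-874-3p it called 0, beside 0.423% of all genes tested. There 2 were higher at an unadjusted p under 0.05, 22.2% beside 7.86% of all genes tested. The 3 called lower with miR-210-3p were keratins, KRT5 by 1.25 on the log2 scale (adjusted p = 0.0268), KRT14 by 1.11 (adjusted p = 0.0180) and KRT17 by 1.01 (adjusted p = 0.0169). The KRT14 and KRT17 probes read nearly alike on all 8 arrays, and whether they are separate readings was not tested. At an unadjusted p under 0.05, 5 of the 9 were lower with miR-210-3p and 1 higher. These are 55.6% and 11.1%, beside 9.50% and 16.5% of all genes tested. EPCAM went up, at 7.66 and 7.68 with miR-210-3p against 7.29 and 7.28 with NC. The fibroblast markers summed to 0.664 to 0.666 with NC, 0.748 to 0.781 for miR-874-3p, 0.993 to 2.08 for miR-210-3p and 0.928 to 0.938 for miR-629-3p, and PDGFRB was called higher in both groups of row 1 (0.47, adjusted p = 0.0192, for miR-629-3p and 0.50, adjusted p = 0.0323, for miR-210-3p). The endothelial markers summed to 3.01 to 3.20 for miR-629-3p, where VWF was called higher by 0.90 (adjusted p = 0.0146), and to 1.95 to 3.35 on the other arrays. The part of these markers in the results was not tested. In RNA of whole cultures, fewer cells of a kind and less RNA per cell cannot be told apart.

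**Figure D1:**
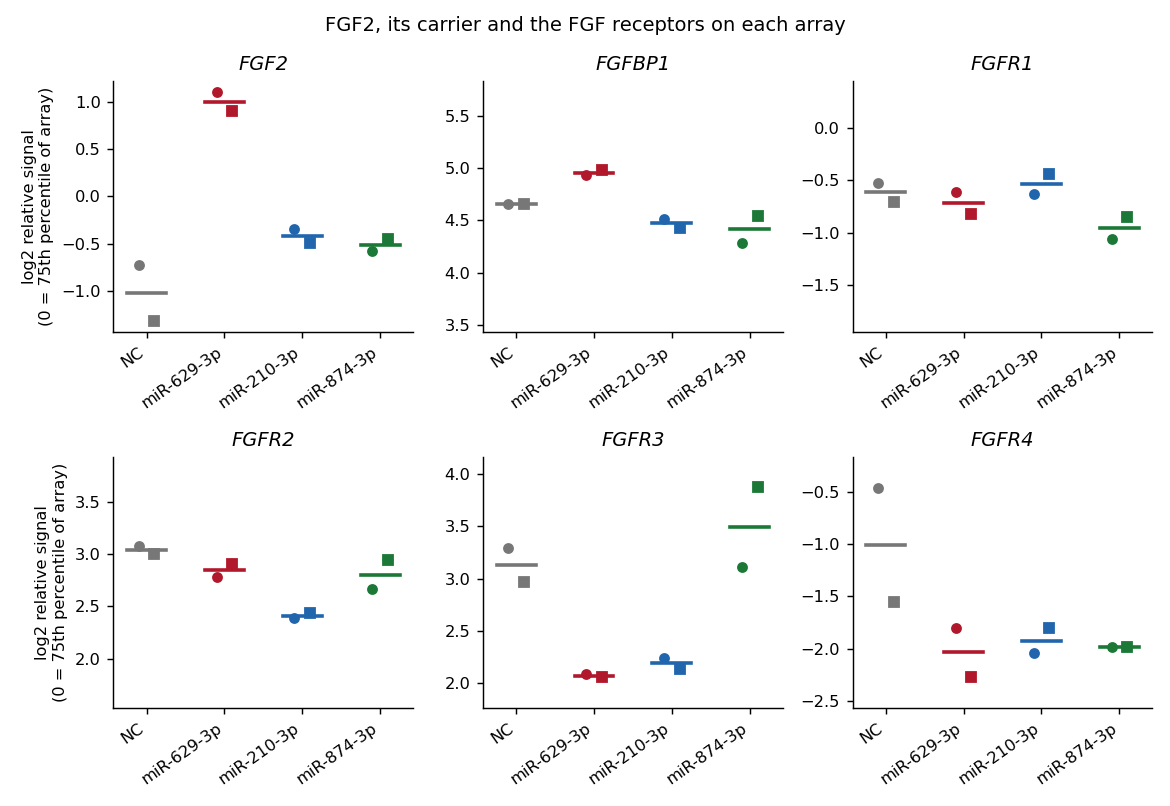
Log2 relative signal (vertical axis, 0 is the 75th percentile of an array) of the probe used for each gene in the 4 groups (horizontal axis). Circles are replicate 1, squares replicate 2 and lines group means; each panel has its own vertical range. The miR-629-3p arrays were highest for FGF2, and FGFR3 separated miR-629-3p and miR-210-3p from miR-874-3p and NC.

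FGF2 stood highest with miR-629-3p and lowest with NC, with the other microRNAs between them. Its level was -0.72 and -1.31 with NC, -0.58 and -0.45 with miR-874-3p, -0.34 and -0.49 with miR-210-3p, against 1.097 and 0.90 on the miR-629-3p arrays. Both miR-629-3p arrays thus lay above the other 6, while miR-210-3p and miR-874-3p overlapped each other. The NC arrays were below all others but differed from each other by more than any other pair did for this gene. The mean was 2.01 ± 0.20 (fitted SE, n = 2 arrays a group) above NC with miR-629-3p, 178th from the top among 21283 genes tested. Since this value lies behind the choice of the genes, it is given without a test. The part of it that lies within a slide row, miR-629-3p minus miR-210-3p, was 1.41 ± 0.20.

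FGF2 was not called in the contrasts that the choice did not name. With miR-210-3p it was 0.60 ± 0.20 above NC (adjusted p = 0.138, limma; 95% interval 0.10 to 1.1). The step from NC to miR-874-3p was 0.51 ± 0.20 (adjusted p = 0.303; interval 0.003 to 1.01). Both share the NC arrays with the contrast behind the choice. Without NC replicate 1 these were 0.89 (miR-210-3p) and 0.80 (miR-874-3p), and without NC replicate 2 they were 0.31 and 0.21. Between miR-210-3p and miR-874-3p, which share no array with that contrast but lie in different rows, the difference was 0.10 ± 0.20 (adjusted p = 0.803; interval -0.41 to 0.60). The intervals against NC hold both a change of 2-fold and one near 0.

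A second FGF2 probe gave the same order at the top. Its levels were -1.32 and -1.94 with NC, -1.48 and -1.36 with miR-874-3p, -1.04 and -1.09 with miR-210-3p, against 0.49 and 0.26 on the miR-629-3p arrays. It lay 2.003 above NC with miR-629-3p, against 0.20 for miR-874-3p and 0.56 for miR-210-3p, and the miR-874-3p arrays lay between the NC arrays on this probe. The probes share 46 of their 60 bases (hg19, chr4:123819331-123819390 for the probe used and chr4:123819317-123819376 for the other, plus strand) and are not independent readings. Normexp background correction with an offset, which draws dim signals together, left 1.09 of the difference between miR-629-3p and NC. FGF2 gave scanner signals of only 28.4 to 162 on the probe used.

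**Figure D2:**
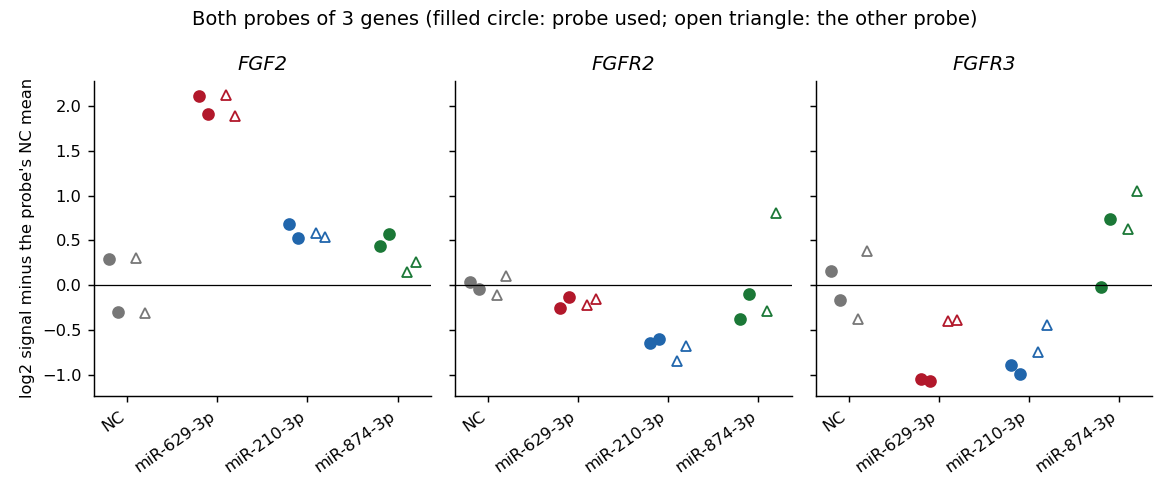
Log2 signal of each array minus the probe's mean on the NC arrays (vertical axis) in the 4 groups, for the 3 genes with a pair of probes well above background on at least 6 arrays. Filled circles are the probe used and open triangles the other probe; both FGF2 probes were near 2 with miR-629-3p, both FGFR2 probes were lowest with miR-210-3p, and both FGFR3 probes were highest with miR-874-3p.

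FGFBP1, the carrier, was bright on every array and moved little. Its level was 4.66 and 4.65 with NC, 4.29 and 4.54 with miR-874-3p, 4.51 and 4.43 with miR-210-3p, against 4.93 and 4.98 on the miR-629-3p arrays (hg19, chr4:15937332-15937391, minus strand). The miR-629-3p arrays were again above the other 6, by a far smaller step than for FGF2. Thus 2 of the 6 members, FGF2 and FGFBP1, had both miR-629-3p arrays above all others, beside 17.0% of all genes tested, on arrays that the choice of the genes used. The miR-629-3p mean was 0.30 ± 0.10 above NC and, within the row, 0.48 ± 0.10 above miR-210-3p. The difference from NC was -0.24 for miR-874-3p (adjusted p = 0.321) and -0.18 for miR-210-3p (adjusted p = 0.314), and neither passed the test.

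FGFR1, a receptor known mostly from mesenchymal cells, differed little between the groups, whose means lay within 0.42 of each other. Its level was -0.53 and -0.70 with NC, -1.06 and -0.85 with miR-874-3p, -0.63 and -0.44 with miR-210-3p, against -0.61 and -0.82 on the miR-629-3p arrays (hg19, chr8:38270470-38270529, minus strand). The miR-874-3p arrays were the lowest, and the other 3 groups overlapped. The differences from NC were -0.34 ± 0.13 for miR-874-3p (adjusted p = 0.290; 95% interval -0.67 to -0.01), 0.08 ± 0.13 for miR-210-3p (adjusted p = 0.752) and -0.10 ± 0.13 for miR-629-3p. The other FGFR1 probes were well above background on 4 arrays and on 0 arrays, and give no further reading.

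FGFR2, whose epithelial form binds FGF7, was lowest with miR-210-3p. Its level was 2.39 and 2.43 on the miR-210-3p arrays, 2.66 and 2.94 for miR-874-3p, 2.79 and 2.91 for miR-629-3p, and 3.07 and 3.00 with NC. The miR-210-3p arrays lay below the other 6, and the NC arrays above them. FGFR2 fell with miR-210-3p by 0.62 ± 0.11 on the log2 scale, a 1.54-fold difference (adjusted p = 0.0398, limma, higher on both NC arrays than on either miR-210-3p array). It was the 1 member of 6 called in this contrast, in which 6.05% of all genes tested were called. The probe shown above moved alike, with a difference of -0.76 (-1.59 and -1.42 with miR-210-3p, -0.84 and -0.63 with NC). This call was close to the threshold: it was kept in 8 of 13 alternatives on all arrays and in 2 of the 8 fits that left out an array, those without a miR-874-3p array. Adjusted p was 0.0598 with only the 2 groups in the fit, 0.0723 with the replicate number as a block, and 0.131 with the methods' t-test. The 3 keratins that fell with miR-210-3p, given above, moved beside FGFR2, and their part in its fall was not tested. Of these, KRT14 and KRT17, whose probes read nearly alike on all 8 arrays, were lower with miR-629-3p too.

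The other contrasts of FGFR2 were smaller. Within the row, miR-629-3p lay 0.44 above miR-210-3p, while the distance of miR-629-3p from NC was -0.19 ± 0.11. The difference of miR-874-3p from NC was -0.23 ± 0.11 (adjusted p = 0.373) and that of miR-210-3p from miR-874-3p was -0.39 ± 0.11 (adjusted p = 0.0868). The latter passed the test with normexp (adjusted p = 0.0187), with a trend in the variance (adjusted p = 0.0345) and without miR-874-3p replicate 1 (-0.53, adjusted p = 0.0341), was -0.25 without replicate 2, and was -0.71 as the mean of all kept probes (adjusted p = 0.106). On the probe shown above, miR-874-3p replicate 2 was at 0.07 and replicate 1 at -1.02, a gap that the probe used did not show to that size. There the mean of miR-874-3p lay 0.26 above NC, opposite in sign to the probe used, and miR-210-3p minus miR-874-3p was -1.03. Another FGFR2 probe, made to another transcript, was well above background on 1 array only.

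FGFR3, a receptor of the squamous epithelium, separated the groups by slide row. Its level was 2.09 and 2.06 for miR-629-3p and 2.24 and 2.14 for miR-210-3p, against 3.30 and 2.97 with NC and 3.11 and 3.87 for miR-874-3p (hg19, chr4:1810363-1810422, plus strand). The 4 arrays of row 1 were thus below the 4 of row 2 with no overlap, and the groups within each row overlapped or were close. The differences from NC were -1.06 ± 0.26 for miR-629-3p, -0.94 ± 0.26 for miR-210-3p (adjusted p = 0.0902) and 0.36 ± 0.26 for miR-874-3p (adjusted p = 0.528; 95% interval -0.27 to 1.00). The miR-210-3p difference passed the test in 2 of 13 alternatives, normexp (adjusted p = 0.0471) and a trend in the variance (adjusted p = 0.0311), and without either miR-874-3p array (adjusted p = 0.0254). That of miR-874-3p was 0.74 without its replicate 1 and -0.02 without its replicate 2. Within row 1, miR-629-3p and miR-210-3p differed by -0.12 ± 0.26. Whether the row or the microRNAs set this pattern cannot be told apart with these arrays.

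Between miR-210-3p and miR-874-3p, FGFR3 was lower with miR-210-3p, with a log2 difference of -1.303 ± 0.26 (adjusted p = 0.0373), or 2.47-fold. It was the 1 member of 6 called in that contrast, beside 9.80% of all genes tested, and the contrast crosses the rows. The call was kept in 9 of 13 alternatives and in 2 of 8 fits that left out an array. Without miR-874-3p replicate 2, the higher of the pair, the difference was -0.92, and without replicate 1 it was -1.68. The second FGFR3 probe (hg19, chr4:1809054-1809113) was near background, at -3.01 and -2.25 with NC, -2.0005 and -1.57 for miR-874-3p, -3.37 and -3.07 for miR-210-3p, against -3.02 and -3.01 for miR-629-3p. There the miR-874-3p arrays were alone at the top, and NC replicate 1 was level with the miR-629-3p arrays.

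FGFR4 was dim, and its NC arrays differed from each other more than the other groups did. Its level was -0.46 and -1.55 with NC, -1.98 and -1.98 with miR-874-3p, -2.04 and -1.81 with miR-210-3p, against -1.80 and -2.27 on the miR-629-3p arrays. NC replicate 1 stood apart, and NC replicate 2 lay above the 6 microRNA arrays. The differences from NC were therefore alike for all 3 microRNAs, at -1.02 for miR-629-3p, -0.92 for miR-210-3p (adjusted p = 0.189) and -0.97 for miR-874-3p (adjusted p = 0.278), each ± 0.36, and rest on the same control arrays. Without NC replicate 1 they were -0.48, -0.37 and -0.43, and with normexp background correction -0.40, -0.34 and -0.35. Between miR-210-3p and miR-874-3p the difference was 0.06 ± 0.36 (adjusted p = 0.939; 95% interval -0.85 to 0.96).

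**Figure D3:**
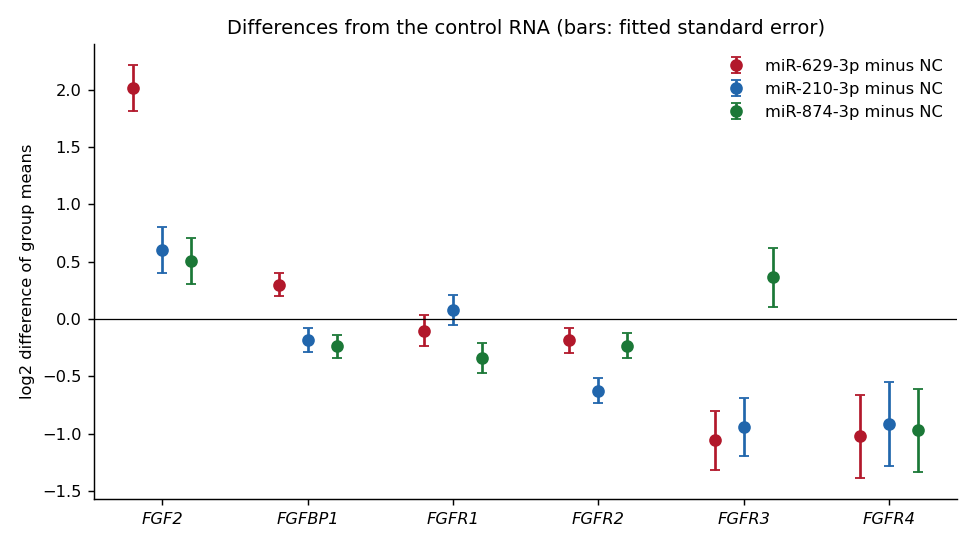
Difference of each microRNA group's mean from NC in log2 units (vertical axis) for the 6 genes (horizontal axis); bars are the fitted standard error and the line at 0 marks NC. FGF2 lay 2.01 above NC with miR-629-3p, FGFR3 about 1 below NC with miR-629-3p and miR-210-3p, and FGFR4 about 1 below with all 3.

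With miR-874-3p, limma called 0 of the 6 members against NC, and 0.423% of all genes tested. At an unadjusted p under 0.05 it was 1 higher (FGF2) and 2 lower (FGFR1 and FGFR4), beside 7.86% higher and 8.52% lower of all genes tested, and the methods' t-test with the same adjustment also called 0. Over the 8 arrays, FGF2 and FGFBP1 ran together (Pearson r = 0.71) and FGF2 and FGFR3 ran in opposite directions (r = -0.59), as a description only, since the 8 points are 4 groups of 2.

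The rest of the pathway was read from 8 hand-written lists. The lists were chosen with earlier results of these arrays known, so calls on them do not stand apart from that choice. They held 105 other genes, 77 of which were tested. With miR-629-3p against NC, 12 rose and 3 fell, 19.5% of those tested beside 16.8% of all genes (9.28% higher and 7.47% lower). With miR-210-3p, 7 rose and 3 fell, 13% beside 6.05% (3.85% higher and 2.20% lower), and with miR-874-3p limma called 0, with 3 higher and 5 lower at an unadjusted p under 0.05, or 3.90% and 6.49% beside 7.86% and 8.52% of all genes tested. The median difference over the 77 genes was 0.05, 0.13 and 0.01, beside 0.02, 0.05 and -0.01 over all genes tested. These counts depended on single arrays: the count of genes higher with miR-629-3p was 2 and 4 without miR-629-3p replicate 1 and 2, 7 and 4 without NC replicate 1 and 2, and 8 without either miR-210-3p array. The count of genes lower was 0 without either miR-629-3p array, 1 without either miR-210-3p array or NC replicate 2, and 2 without NC replicate 1. For miR-210-3p the count of genes higher was 0 without either of its own arrays, 2 without either NC array, 3 without either miR-629-3p array and 13 without either miR-874-3p array. The count lower was 0 without either of its own arrays, 1 without NC replicate 1, and 2 without NC replicate 2 or either miR-629-3p array. The genes behind these counts need not be those called with all arrays. Within slide row 1, 19 of the 77 differed between miR-629-3p and miR-210-3p (11 higher with miR-629-3p, 8 lower), 24.7% beside 22.6% of all genes.

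Next to FGF2 in the genome lies NUDT6, a gene on the opposite strand whose transcript overlaps that of FGF2 and which is also known as the FGF2 antisense gene. Its level was 0.74 and 0.64 with NC, 0.73 and 0.73 with miR-874-3p, 1.15 and 1.35 with miR-210-3p, against 1.74 and 1.62 on the miR-629-3p arrays. It had FGF2's leading group, but its miR-874-3p arrays overlapped NC. NUDT6 rose with miR-629-3p by 0.99 ± 0.10 (adjusted p = 0.00573), a call kept in 12 of 13 alternatives and in all 8 fits without an array, and with miR-210-3p by 0.56 ± 0.10 (adjusted p = 0.0362), kept in 9 and 2. Within the row it was 0.43 higher with miR-629-3p than with miR-210-3p (adjusted p = 0.0288). Its array probe was designed to its own strand, and crosstalk with FGF2 was not tested.

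Of the 10 feedback inhibitors tested, 3 rose and 0 fell in each group of row 1. This is 30% of the list, beside 9.28% of all genes higher for miR-629-3p. In the miR-210-3p arrays 3.85% of all genes were higher. The same 3 genes rose in both groups: SPRY2, a Sprouty protein, and DUSP4 and DUSP6, phosphatases that act on ERK. With miR-874-3p 0 were called, with 1 higher and 1 lower at an unadjusted p under 0.05. These are 10% each, beside 7.86% and 8.52% of all genes tested. SPRY2 stood at 1.50 and 1.41 with NC, 1.43 and 1.23 with miR-874-3p, 1.97 and 1.99 with miR-210-3p, against 2.43 and 2.49 on the miR-629-3p arrays. It was 1.01 ± 0.09 above NC with miR-629-3p (adjusted p = 0.00547, kept in 12 of 13 alternatives and all 8 fits without an array) and 0.53 above with miR-210-3p (adjusted p = 0.0371, kept in 9 and 2), and the step between both, within the row, was 0.48 (adjusted p = 0.0204). DUSP6 had another order, 4.76 and 4.69, 5.33 and 5.34, 5.51 and 5.48, and 5.02 and 5.16 in the same sequence of groups. It rose by 0.37 with miR-629-3p (adjusted p = 0.0312) and by 0.77 in the miR-210-3p arrays (adjusted p = 0.0117). For miR-874-3p, in the row of NC, the difference was 0.61 and not called (adjusted p = 0.0547). DUSP4, named after its values were seen, rose by 0.63 with miR-629-3p (adjusted p = 0.0273) and by 0.71 in the miR-210-3p arrays (adjusted p = 0.0376). Within the row, miR-629-3p minus miR-210-3p was -0.08 for DUSP4 (adjusted p = 0.688), so row and microRNAs cannot be told apart. With an array left out, both DUSP4 calls were kept in 2 of 8 fits, and those of DUSP6 in 2 and 5. SPRY4 was 0.54 (adjusted p = 0.0608) and 0.68 (adjusted p = 0.0575) above NC there and was not called.

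Among the 10 response genes, 4 rose and 0 fell with miR-629-3p, 40% beside 9.28% of all genes higher. With miR-210-3p 2 rose and 0 fell, 20% beside 3.85% of all genes higher. These were EGR1 and ETV5. For ETV5, miR-629-3p minus miR-210-3p, within the row, was -0.26 (adjusted p = 0.144). EGR1, an immediate-early transcription factor, was at 4.49 and 4.82 with NC, 4.94 and 5.00 with miR-874-3p, 5.49 and 5.62 with miR-210-3p, against 5.87 and 5.63 on the miR-629-3p arrays. It rose by 1.098 ± 0.14 with miR-629-3p (adjusted p = 0.0107) and by 0.90 ± 0.14 with miR-210-3p (adjusted p = 0.0301), and the groups within row 1 differed by 0.20 (adjusted p = 0.373). The latter call was kept in 3 of 8 fits without an array, the former in 7. ETV5 rose by 0.46 with miR-629-3p and by 0.72 in the miR-210-3p arrays (kept in 2 and 4 of 8 fits without an array), while its relative ETV4 was at -0.35 (adjusted p = 0.180) and -0.02 (adjusted p = 0.963) against NC. The other genes that rose with miR-629-3p, both named after their values were seen, were PHLDA1 by 0.85 (adjusted p = 0.0146, kept in 12 of 13 alternatives and 5 of 8 fits without an array) and IER3 by 0.79 (adjusted p = 0.0463, kept in 9 and 2).

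**Figure D4:**
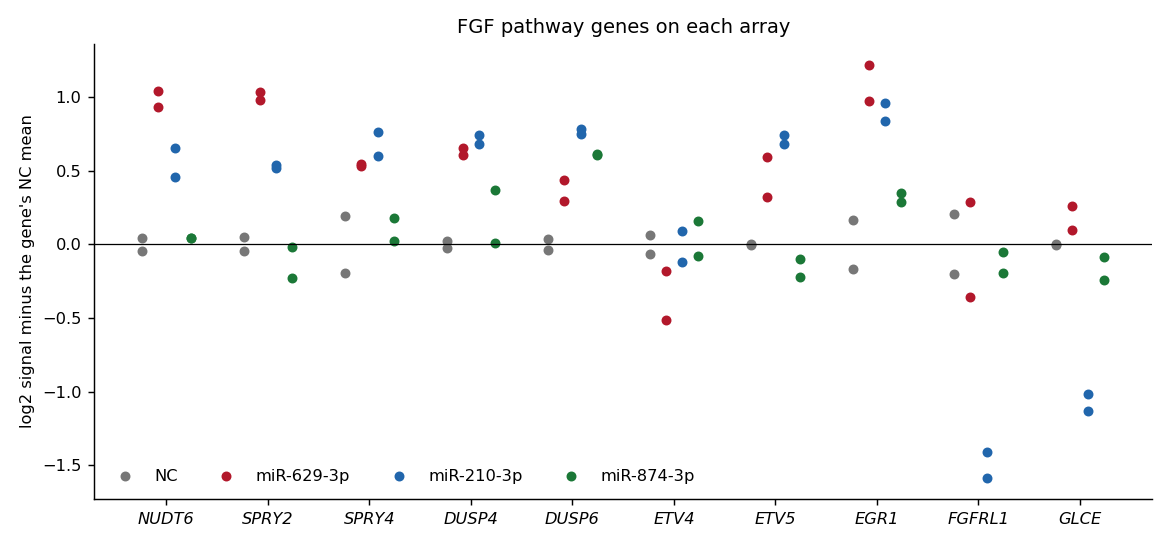
Log2 signal of each array minus the gene's mean on the NC arrays (vertical axis) for 10 genes of the FGF pathway (horizontal axis), 2 arrays a group. SPRY2 and NUDT6 were highest with miR-629-3p, FGFRL1 and GLCE were low with miR-210-3p alone, and DUSP6 lay above NC with all 3 microRNAs.

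Of the genes that hold or modify ligand and heparan sulfate, FGFRL1 and GLCE fell by at least 2-fold against NC with miR-210-3p. FGFRL1, a receptor-like protein without the kinase domain, was at -0.77 and -0.94 with miR-210-3p against 0.85 and 0.44 with NC, 0.45 and 0.59 for miR-874-3p, and 0.29 and 0.93 for miR-629-3p. It fell by 1.4996 ± 0.24 on the log2 scale against NC (adjusted p = 0.0319), and miR-629-3p in the same slide row lay 1.47 above miR-210-3p (adjusted p = 0.0138). The call against NC was lost in 4 of 13 alternatives and without either miR-210-3p or either NC array. GLCE, the epimerase that makes iduronic acid in heparan sulfate, was at -1.28 and -1.39 with miR-210-3p and between -0.51 and -0.003 on the other 6 arrays. It fell by 1.07 ± 0.10 (adjusted p = 0.00994), kept in 11 of 13 alternatives and lost without either miR-210-3p array, and was 1.25 lower than with miR-629-3p in the same row (adjusted p = 0.00308). In these lists, 1 of 12 binding proteins and co-receptors rose with miR-210-3p (GPC4) and 1 fell (FGFRL1), 16.7% called beside 6.05% of all genes tested. Of 11 heparan sulfate enzymes 2 fell (GLCE and NDST1), 18.2% beside 2.20% of all genes lower. With miR-629-3p 1 of the 12 fell (HSPG2), 8.33% beside 7.47% of all genes lower. HSPG2 was at -0.32 against NC with miR-210-3p too, not called (adjusted p = 0.0722), and differed within the row by -0.14 (adjusted p = 0.258). Of the 11 enzymes 2 rose with miR-629-3p (NDST2 and HS3ST1), 18.2% beside 9.28% of all genes higher. GPC4, NDST1, HSPG2, NDST2 and HS3ST1 are named after their values were seen. Of them, HS3ST1 kept its call in 12 of 13 alternatives and 7 of 8 fits without an array, GPC4 in 10 and 6, HSPG2 in 10 and 5, NDST2 in 11 and 4, and NDST1 (adjusted p = 0.0489) in 6 and 2. GPC4 was also 2.21-fold higher with miR-210-3p than with miR-874-3p (adjusted p = 0.00499), across the rows. The fall of 3 keratins with miR-210-3p, given above, lay beside those of FGFRL1 and GLCE, and its part in them was not tested. Of these keratins, KRT14 and KRT17, whose probes read nearly alike, were lower with miR-629-3p too.

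The main membrane proteoglycans that present FGF2 did not pass the test against NC. SDC1 was at -0.23 (adjusted p = 0.0599) with miR-629-3p and 0.30 (adjusted p = 0.0539) with miR-210-3p, opposite in sign, and differed within the row by -0.53 (adjusted p = 0.00638). SDC4 was 0.05 above NC for miR-629-3p, 0.07 for miR-210-3p and 0.05 for miR-874-3p. In the same order GPC1 was at -0.26, -0.60 and -0.10, with 0.169 as its lowest adjusted p. ESRP1 and ESRP2, which set the epithelial splicing of FGFR2, were at -0.003 and -0.11 for miR-629-3p, at 0.14 and -0.20 for miR-210-3p, and in the miR-874-3p arrays at -0.19 and -0.16. In none of these contrasts was any of the 4 splice regulators called. At an unadjusted p under 0.05, 1 of the 4 was lower with miR-629-3p, 1 in the miR-210-3p arrays and 0 for miR-874-3p. These are 25%, 25% and 0%, beside 15.5%, 9.50% and 8.52% of all genes tested.

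Downstream of the receptors, 2 of 21 adaptors and MAP kinase genes rose and 2 fell with miR-629-3p, 19% called beside 16.8% of all genes tested. With miR-210-3p 0 were called, beside 6.05% of all genes. There 5 were higher and 1 lower at an unadjusted p under 0.05, or 23.8% and 4.76% beside 16.5% and 9.50% of all genes tested. GAB1, a docking protein, was well above background on both miR-629-3p and both miR-210-3p arrays, and on no miR-874-3p or NC array. It thus entered the test only through the groups of row 1, where it was high. Within that row, miR-629-3p lay 0.65 above miR-210-3p and was not called (adjusted p = 0.119). Against NC, GAB1 was at least 1.61-fold higher with miR-629-3p (adjusted p = 0.0274 for the fitted difference of 1.25). This bound sets the mean of the bright group against the dimmest detected signal of each NC array. The call was kept in 7 of 12 alternatives and in 4 of 8 fits without an array, and was lost without either miR-629-3p array and without either NC array. The others, named after their values were seen, were FRS2, an adaptor of the receptors, at 0.98 (adjusted p = 0.0144), NRAS at -0.55 (adjusted p = 0.0199) and BRAF at -0.28 (adjusted p = 0.0363). FRS2 kept its call in 12 of 13 alternatives and in 5 of 8 fits without an array, NRAS in 11 and 2, and BRAF in 6 and 2. Of 21 other FGF ligands, 9 were well above background on no array and 2, FGF3 and FGF7, on all 8. Of the 7 tested, 0 were called against NC with any microRNA. At an unadjusted p under 0.05 it was 0 with miR-629-3p, beside 18.2% higher and 15.5% lower of all genes tested. In the miR-210-3p arrays 1 was higher and 1 lower (14.3% each, beside 16.5% and 9.50%), and for miR-874-3p 1 was lower (14.3%, beside 8.52%). FGF7, a ligand of FGFR2 named after its values were seen, was at -0.90 on NC replicate 1 and -2.06 on replicate 2, the same split as FGFR4.

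The genes whose levels ran most like each member's over the 8 arrays were ranked by Pearson correlation among 17400 genes well above background on all arrays, as a description. For FGF2 they were a long non-coding RNA without a gene symbol (r = 0.99), SUPT7L (0.99), EVA1A (0.99), SPECC1L (0.99) and LINC00882 (0.98), and 479 genes had r above 0.9, so likeness to FGF2 was common. For FGFBP1 they were DGKG and CDC42BPG, with 382 genes above 0.9. For FGFR1 they were ZDHHC13 and CREB1, with 9 genes above 0.9, the fewest of the members. For FGFR2 they were GTF2F1 and XLOC_l2_004844, for FGFR3 H19 and ASS1, and for FGFR4 lnc-TENC1-1 and ENST00000580347. H19 followed the row split of FGFR3, at 8.54 and 9.31 for miR-874-3p against 7.71 and 7.80 for miR-210-3p. The gene lnc-TENC1-1 shared the high NC replicate 1 of FGFR4, at 0.36 there against -0.85 on NC replicate 2.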

How the data were processed

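The members and lists were chosen with earlier results of these data known. Per the labels, 100 ng of total RNA was labelled with Cy3. The authors deposited the intensity of each spot from Agilent Feature Extraction 11.5.1.1 (background-subtracted and detrended, not normalized between arrays), with other values that flag outliers and detection, and a log2 table, deposited by the authors, that served as an alternative. Probe positions are the array annotation's, on hg19.

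From these, log2 signal minus each array's 75th percentile over gene probes was computed, leaving out control spots and 87 to 346 outlier spots of 60901 per array. No member spot was an outlier, and none was saturated. Spots of a probe were averaged, and the probe with the highest mean stood for a gene. Probes needed a value on all 8 arrays and detection on both arrays of at least 1 group. Groups were compared in 1 fit of all arrays with limma 3.58.1 (lmFit, eBayes; R 4.3.3), with 4 residual and 1.68 prior degrees of freedom. The step was tested on simulated data. All 111 symbols of members and lists matched RefSeq. The number of arrays limits the precision.

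Text names every member, pathway genes called with at least 2-fold against NC, 12 pathway genes named whatever their values, and the 5 genes most like FGF2 and 2 most like each other member. Alternatives were normexp (offset 50), quantile normalization, median centring, the authors' values, outliers kept, a floor, other detection filters, the mean of probes, 2 groups only, trend, the replicate block, the methods' t-test, a call at p under 0.05 with 2-fold, and each array left out. The slide row as a block could not be estimated, since each group lies in 1 row.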

Additional observations from a re-analysis of the deposited data

How the results depend on the processing

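Each group has 2 arrays, and 41.8% to 49.8% of the probes were well above background, which limits what dim genes such as FGFR4 can show. FGF2 minus NC with miR-629-3p was 1.09 with normexp, and 1.72 to 2.31 with an array left out. FGF2 with miR-629-3p was 0.81 above miR-210-3p and 0.93 above miR-874-3p with normexp, and 1.65 above miR-874-3p with the mean of all probes. With an array left out these were 1.31 to 1.51 and 1.41 to 1.61. No member's called difference changed sign. The cause of these shifts and of those below was not tested.

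Pathway genes higher with miR-629-3p than NC (12) numbered 0 by the methods' t-test, 3 at p under 0.05 with 2-fold, and 2 to 16 with an array left out. Those lower (3) numbered 5 after median centring, 9 with no filter, 5 with detection on all 8 arrays, 1 with the mean of probes, 1 with 2 groups only, 0 by the t-test, 1 at p under 0.05 with 2-fold, and 0 to 3 with an array left out. Those higher with miR-210-3p (7) numbered 14 with normexp, 12 with the authors' values, 11 with outliers kept, 0 with no filter, 13 with detection on all 8 arrays, 0 with 2 groups only, 14 with a trend, 0 by the t-test, 1 at p under 0.05 with 2-fold, and 0 to 13 with an array left out. Those lower (3) numbered 0 with no filter, 1 with 2 groups only, 0 by the t-test, and 0 to 4 with an array left out. For miR-874-3p (0 and 0), 1 was higher with normexp, quantile normalization, detection on all 8 arrays or a trend, and 1 lower with a trend or at p under 0.05 with 2-fold. With no filter the median of all genes moved to -0.17 (miR-629-3p), -0.11 (miR-210-3p) and -0.09 (miR-874-3p) against NC.

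Same-numbered arrays did not deviate together (correlations -0.11 to 0.03). With 2 arrays a group, this cannot exclude that the numbers mark pairs. With the replicate number as a block, 2 pathway genes were higher and 1 lower with miR-210-3p, and FGFR2 lost its call. A crossed pairing of miR-874-3p and NC, added after seeing the data, called 0 genes, as did the numbered one, with 2351 and 1401 genes at an unadjusted p under 0.05.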
